A study of Homo sapiens with 6 samples.

Results

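Tubulin genes and stathmin were followed in MOLM-13 cells, an established acute myeloid leukaemia line of human origin, that had been kept for 24 h with DEG-35 at 50 nM or with DMSO as the solvent control. DEG-35 is named in the study as a dual degrader of the transcription factor IKZF2 and of the kinase CK1α. All cells carried the wild-type genotype label and were of this 1 line. The DEG-35 and DMSO groups had 3 RNA-seq libraries each, and since the labels leave the origin of replicates unstated, the p-values measure only the spread between these libraries, which may be technical. The members were 6 named genes, STMN1, TUBA1B, TUBA1C, TUBB, TUBB4B and TUBG1, taken from the authors' deposited comparison of both groups by an exact match of the gene name. All 6 were among the 6831 genes of that table, which holds the genes with an adjusted p below 0.05 out of 15064 tested, a number implied by the adjusted p-values. The table gives a log2 fold change and its p-values for each gene and holds no levels. The values of single libraries, their depth and the overlap of the groups were therefore not analysed here, and the labelled cell type could not be checked against marker levels. In bulk RNA a lower share of dividing cells and less of a transcript per cell cannot be told apart. The header does not name the numerator. The values are taken here as DEG-35 over DMSO, and every direction would turn round with the opposite order.

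Microtubules are hollow polymers of α- and β-tubulin heterodimers, and they build the mitotic spindle and serve as tracks for transport. γ-Tubulin does not form the wall of the polymer but sits in a ring complex that starts new microtubules. Stathmin, the product of STMN1, binds tubulin dimers, limits polymer growth and is switched off by phosphorylation in mitosis. It is abundant in many leukaemias, where it was first described as oncoprotein 18. Cells also adjust tubulin mRNA to the amount of free tubulin, by degrading the mRNA while it is being translated.

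The promoter windows of STMN1, TUBG1, TUBB4B and TUBA1C are shown because they hold E2F or CHR letters. These letters are known from promoters of cell cycle genes. The choice was by letters and not by change, since all members were lower with DEG-35. TUBB and TUBA1B, without these letters, had log2 fold changes of -2.14, with a wide error, and -1.75. STMN1 had a larger estimated fall than both, and TUBB4B, TUBG1 and TUBA1C had smaller ones. Whether the letters bear on the change was not tested. Sequences are from RefSeq on GRCh38.p14, from 250 bases before to 50 bases after an annotated start, 5′ to 3′ on the strand of the gene. Capitals mark exact matches to the CCAAT box (CCAAT, or ATTGG where it lies on the opposite strand), to the CHR element (TTTGAA) and to E2F letters (TTTGGCGC).
STMN1, start 2 of 3, chr1:25906370-25906669, minus strand: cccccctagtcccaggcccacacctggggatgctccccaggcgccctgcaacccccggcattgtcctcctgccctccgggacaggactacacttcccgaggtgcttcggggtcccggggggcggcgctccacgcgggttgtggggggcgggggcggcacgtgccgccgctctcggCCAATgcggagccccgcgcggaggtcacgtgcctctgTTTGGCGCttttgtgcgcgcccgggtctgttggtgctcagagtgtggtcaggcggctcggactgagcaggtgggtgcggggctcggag
TUBG1, chr17:42609433-42609732, plus strand: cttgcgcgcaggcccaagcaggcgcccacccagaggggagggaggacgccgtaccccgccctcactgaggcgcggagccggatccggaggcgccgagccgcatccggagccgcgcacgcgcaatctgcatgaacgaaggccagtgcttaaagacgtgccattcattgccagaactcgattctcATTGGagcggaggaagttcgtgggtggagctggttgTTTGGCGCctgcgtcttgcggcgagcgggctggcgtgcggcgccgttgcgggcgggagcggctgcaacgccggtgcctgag
TUBB4B, chr9:137241037-137241336, plus strand: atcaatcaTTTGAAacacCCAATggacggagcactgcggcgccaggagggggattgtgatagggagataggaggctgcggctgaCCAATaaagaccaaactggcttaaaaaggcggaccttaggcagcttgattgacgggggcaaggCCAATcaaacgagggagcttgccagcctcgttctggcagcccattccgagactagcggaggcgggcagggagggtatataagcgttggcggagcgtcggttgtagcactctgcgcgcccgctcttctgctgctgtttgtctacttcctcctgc
TUBA1C, start 3 of 3, chr12:49264832-49265131, plus strand: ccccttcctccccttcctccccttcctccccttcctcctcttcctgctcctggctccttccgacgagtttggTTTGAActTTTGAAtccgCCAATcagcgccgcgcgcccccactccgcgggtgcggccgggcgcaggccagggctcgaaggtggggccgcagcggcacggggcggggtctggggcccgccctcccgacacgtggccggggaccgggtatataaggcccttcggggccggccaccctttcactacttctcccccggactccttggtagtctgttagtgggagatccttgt

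All 6 members were lower with DEG-35. At an adjusted p below 0.05, 45.3% of the tested genes passed in either direction and 24.0% passed as lower. The members' log2 fold changes lay between -2.57 and -0.998, with a median of -1.64. The median was -0.19 over all 6831 listed genes and -0.45 over the 3613 genes listed as lower. The members were chosen with earlier results of these data known, so their distance from these medians may come in part from the choice. Errors given with log2 fold changes are standard errors (SE) implied by each value and its p-value, and intervals are the 95% intervals from them.

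The α-tubulin genes TUBA1B and TUBA1C fell by different amounts. TUBA1B, a main α-tubulin gene of dividing cells, stood at -1.75 ± 0.0546 (95% interval -1.86 to -1.65) in the authors' deposited table, 3.37-fold lower with DEG-35, with an adjusted p of 7.83e-224. It ranked 31st by p-value among the listed genes. TUBA1C, a nearby α-tubulin gene on the same chromosome, stood at -0.998 ± 0.0573 (-1.11 to -0.885) in the authors' deposited table, 2.00-fold lower, with an adjusted p of 4.41e-66. Their intervals did not overlap, and TUBA1B minus TUBA1C was -0.76 on the log2 scale (-0.912 to -0.601). Their coding sequences are 96.8% identical in GENCODE release 29, and 62.7% of the 50-base windows of the principal TUBA1B transcript also occur in a transcript of another gene, against 25.1% for TUBA1C. The labels do not state how the authors' counting treated reads of such copies, so how much of each change belongs to which of the genes TUBA1A, TUBA1B and TUBA1C is uncertain.

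The β-tubulin genes were lower with very unequal precision. TUBB4B, a broadly expressed β-tubulin, stood at -1.52 ± 0.0862 (-1.69 to -1.36) in the authors' deposited table, 2.88-fold lower with DEG-35, with an adjusted p of 3.53e-68. TUBB, the main β-tubulin gene of most dividing cells, had the larger estimate of -2.14 in the authors' deposited table, 4.40-fold lower, but with an implied SE of 0.748 and an interval from -3.61 to -0.67. Its adjusted p was 0.0114 in the authors' deposited table, and it was the member that did not stay listed at an adjusted p below 0.01. The implied SE of TUBB was higher than those of 99.0% of listed genes, with 65 genes above it, while the median implied SE of the table was 0.0891. The other 5 members had implied SEs between 0.0546 and 0.0947. The difference between TUBB and TUBB4B, -0.61 with an interval from -2.09 to 0.86, was within this error. Of the 50-base windows of their principal transcripts, 18.2% for TUBB and 9.89% for TUBB4B also occur in a transcript of another gene. For TUBB 16.1% occur in the pseudogene TUBBP1. How the authors' counting treated such reads is not stated, and its effect on these values was not tested.

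**Figure D1:**
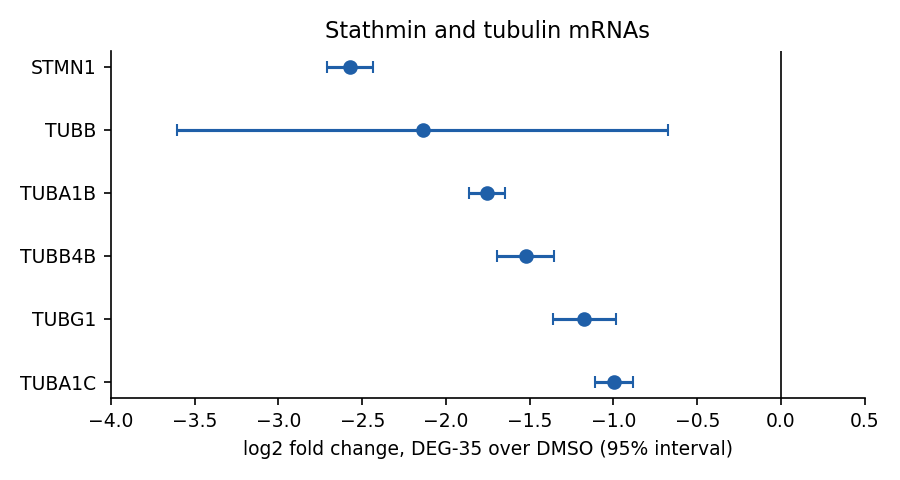
Log2 fold change of each member, DEG-35 over DMSO (horizontal axis), as points with 95% intervals from the implied SE. All 6 intervals lie below 0, and that of TUBB, from -3.61 to -0.67, covers the intervals of the other 5 members.

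TUBG1, the γ-tubulin gene, stood at -1.17 ± 0.0947 (-1.36 to -0.988) in the authors' deposited table, 2.26-fold lower with DEG-35, with an adjusted p of 8.70e-34. Its close copy TUBG2 was not listed, and 29.1% of the 50-base windows of the principal TUBG1 transcript occur in TUBG2. STMN1 had the largest estimated change of the members, at -2.57 ± 0.0693 (-2.71 to -2.44), 5.95-fold lower, and had an adjusted p of 2.49e-298 by the authors' deposited table. By p-value it ranked 5th of all listed genes, and by size of fall it ranked 34th. None of the 50-base windows of its principal transcript occurs in another gene.

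In order of fall the members ran STMN1, TUBB, TUBA1B, TUBB4B, TUBG1 and TUBA1C. Of the 15 differences between members, 9 had a 95% interval that left out 0, and all 5 that involve TUBB held 0. These intervals take the genes' errors as independent, although all values come from the same libraries. STMN1 differed from TUBA1B by -0.82 (-0.991 to -0.645). TUBA1B differed from TUBB4B by -0.23 (-0.430 to -0.0298), and TUBB4B from TUBG1 by -0.35 (-0.602 to -0.0999). TUBG1 and TUBA1C were not separated by their error, with a difference of -0.18 (-0.393 to 0.0412).

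**Figure D2:**
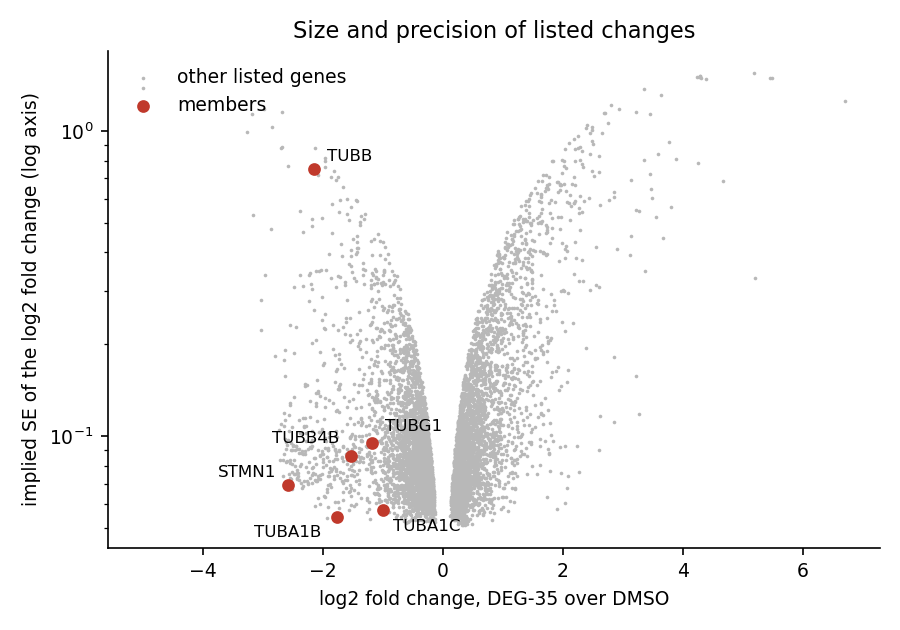
Log2 fold change, DEG-35 over DMSO (horizontal axis), against its implied SE (vertical log axis) for the listed genes, with the members in red. TUBB sits at an SE of 0.748, apart from the other members at 0.0546 to 0.0947.

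TUBB also lay in a stretch of the genome with few listed genes. Of the 25 protein-coding genes on either side of TUBB in RefSeq's order on chromosome 6, 3 of 50 were listed. The same count was 24 of 50 around STMN1, 22 of 50 around TUBG1, 18 of 50 around TUBA1B, 17 of 50 around TUBA1C and 12 of 41 around TUBB4B, which lies near a chromosome end. Over all RefSeq protein-coding symbols 31.2% were listed. The run of unlisted genes was 53 genes long before TUBB and 14 genes long after it, and the 3 listed neighbours were CCHCR1, TCF19 and DDX39B. This stretch belongs to the major histocompatibility complex, of which hg19 is also distributed with alternative copies. The labels do not state whether the authors' reference held these copies or how reads matching several places were counted, so the TUBB value may rest on part of its reads, which was not tested. Unlisted genes did not pass or were not tested.

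**Figure D3:**
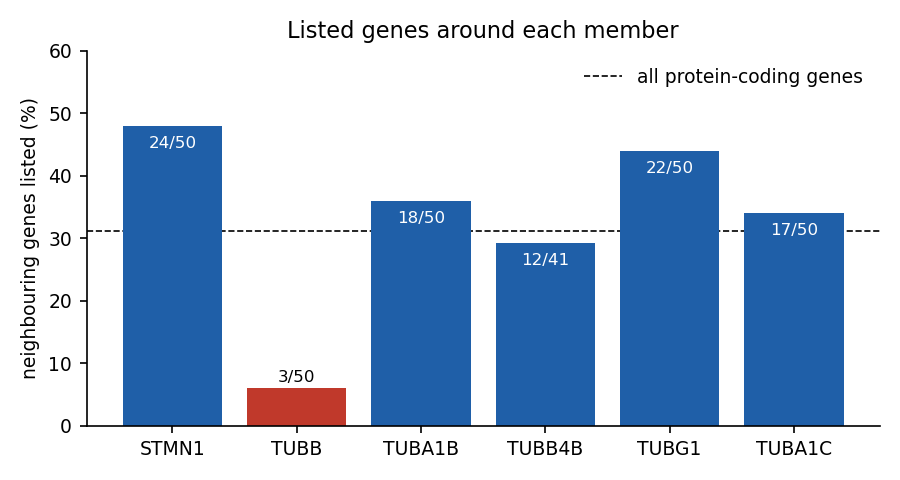
Share of the nearest protein-coding genes that are in the authors' deposited table (vertical axis, percent), for up to 25 genes on either side of each member. The dashed line is the 31.2% of all RefSeq protein-coding symbols, and TUBB stands at 3 of 50.

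Genes that overlap members in GENCODE release 29 were listed in 2 cases, each with a value close to that of its member. MIR3917, a microRNA gene annotated inside STMN1 on the same strand, stood at -2.55 ± 0.126 in the authors' deposited table, against -2.57 for STMN1. FAM166A, which lies on the opposite strand and shares 124 bases with the end of TUBB4B, stood at -1.47 ± 0.0920 in the authors' deposited table, against -1.52 for TUBB4B. The labels do not state whether reads were counted by strand, so reads of FAM166A and TUBB4B cannot be told apart where they overlap. MIR3917 lies on the strand of STMN1, so counting by strand would not separate these genes. None of the 50-base windows of the principal STMN1 transcript occurs in another gene. That match cannot show an overlap within an intron or one of fewer than 50 bases. Which reads gave the MIR3917 value was not tested.

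The other tubulin genes that passed were also lower. Of 18 further tubulin genes 6 (33.3%) were listed, all 6 of them lower. The share of all RefSeq protein-coding symbols that were listed was 31.2%, and 24.0% of the tested genes passed as lower. With the 5 tubulin members, which were given from the same table, 11 of 23 tubulin genes were listed, and their median was -0.998. The α-tubulin gene TUBA8 stood at -1.17 ± 0.123, TUBA4A at -0.90 ± 0.0767 and TUBE1, which encodes the centriole-associated ε-tubulin, at -0.62 ± 0.0909 in the authors' deposited table. The remaining 3, TUBB3, TUBD1 and TUBB6, ranged from -0.98 to -0.37 in the authors' deposited table, the first with an implied SE of 0.349. The 12 tubulin genes not listed included TUBA1A, TUBB2A, TUBB2B, TUBB4A and TUBG2, which did not pass or were not tested.

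Genes that work with γ-tubulin in starting microtubules were mostly lower. Of all tested genes 45.3% passed, 24.0% as lower and 21.4% as higher, and of all RefSeq protein-coding symbols 31.2% were listed. Among the γ-tubulin complex and its recruiters, 11 of 13 genes passed, 10 as lower and 1 as higher, and their median was -0.65. If every log2 fold change were 0.3 higher, since the authors' scaling factors are unknown, 2 of the 11 would be higher and 9 lower. NEDD1, which attaches the complex to the spindle and centrosome, stood at -1.05 ± 0.0797 in the authors' deposited table. PCNT, a centrosome scaffold, stood at -0.88 ± 0.0669 and CDK5RAP2, which activates the complex, at -0.97 ± 0.0757 in the authors' deposited table. AKAP9, a Golgi and centrosome scaffold, was the exception at 0.61 ± 0.0899 in the authors' deposited table. The ring subunit genes TUBGCP3, TUBGCP4 and TUBGCP5 stood closer to 0 than TUBG1, between -0.51 and -0.25 in the authors' deposited table, and TUBGCP2 and TUBGCP6 were not listed. All 8 genes of augmin, which recruits the γ-tubulin complex to the side of existing microtubules, passed as lower, and their median was -0.86. HAUS8 stood at -1.78 ± 0.104, HAUS5 at -1.23 ± 0.101 and HAUS1 at -0.97 ± 0.0851 in the authors' deposited table.

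Genes of tubulin folding stood closer to 0 than the members. Among the prefoldin and CCT chaperone genes and the tubulin cofactors, 11 of 21 passed, 8 as lower and 3 as higher, and their median was -0.21. That was 52.4% of the list, which includes any genes that were not tested. Of all RefSeq protein-coding symbols 31.2% were listed, and of the tested genes 45.3% passed, 24.0% as lower and 21.4% as higher. The CCT subunit genes TCP1 at -0.56 ± 0.0571 and CCT5 at -0.42 ± 0.0592 and the cofactor gene TBCD at -0.62 ± 0.0994 were lower in the authors' deposited table. The prefoldin subunit gene PFDN5 at 0.35 ± 0.0717, TBCEL at 0.36 ± 0.115 and CCT8 at 0.19 ± 0.0615 were higher in the authors' deposited table. If every log2 fold change were 0.3 higher, since the authors' scaling factors are unknown, 6 of the 11 would be higher and 5 lower. Of 3 genes that act in the autoregulation of tubulin mRNA, SCAPER was listed, at -0.35 ± 0.114 in the authors' deposited table. TTC5, which recognises nascent tubulin on the ribosome, and CNOT11 were not listed.

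Enzymes that modify tubulin showed no common direction. Of 29 such genes, 11 (37.9%) were in the table, 6 as higher and 5 as lower, and their median was 0.22. Of all RefSeq protein-coding symbols 31.2% were listed, and among all tested genes 45.3% passed, 21.4% as higher and 24.0% as lower. If every log2 fold change were 0.3 lower, 4 of the 11 would be higher and 7 lower. TTLL3, a tubulin glycylase gene, stood at 0.93 ± 0.0826, MATCAP1 (listed as KIAA0895L), which removes the terminal tyrosine of α-tubulin, at 0.64 ± 0.106 and the deacetylase gene SIRT2 at 0.48 ± 0.0797 in the authors' deposited table. TPGS2, a polyglutamylase subunit gene, at -0.64 ± 0.0818, TTL, which adds the tyrosine back, at -0.64 ± 0.0870 and TTLL4 at -0.40 ± 0.0771 were lower in the authors' deposited table.

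Among other genes that, like STMN1, limit or sever microtubules, all listed ones were lower. Of 17 genes 8 were listed (47.1%), with a median of -1.68. The 17 include any genes that were not tested. Of all RefSeq protein-coding symbols 31.2% were listed, and of the tested genes 45.3% passed, 24.0% as lower. The depolymerising kinesin genes KIF2C at -2.40 ± 0.0743, KIF18B at -2.64 ± 0.108 and KIF24 at -1.97 ± 0.0984 were lower in the authors' deposited table, where STMN1 stood at -2.57. KIF2A, a depolymerising kinesin gene of the same family as KIF2C, stood at -0.36 ± 0.0730 and the severing enzyme gene KATNA1 at -0.22 ± 0.0774 in the authors' deposited table. The other stathmin family genes, STMN2, STMN3 and STMN4, were not listed.

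Genes that bind, bundle or stabilise microtubules were listed in 18 of 38 cases (47.4%), 16 lower and 2 higher, with a median of -0.37. The 38 include any genes that were not tested. Of all RefSeq protein-coding symbols 31.2% were listed, and of the tested genes 45.3% passed, 24.0% as lower and 21.4% as higher. NUSAP1, TPX2 and PRC1, which act on the mitotic spindle and its midzone, stood at -2.34 ± 0.0678, -2.17 ± 0.0704 and -2.10 ± 0.0713 in the authors' deposited table. MAP4 at -0.28 ± 0.0595 and MAPRE1, which tracks growing ends, at -0.24 ± 0.0650 were nearer to 0 in the authors' deposited table. CLIP2 at 0.79 ± 0.168 and MAP7 at 0.34 ± 0.0982 were higher in the authors' deposited table. If every log2 fold change were 0.3 higher, 8 of the 18 would be higher and 10 lower.

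**Figure D4:**
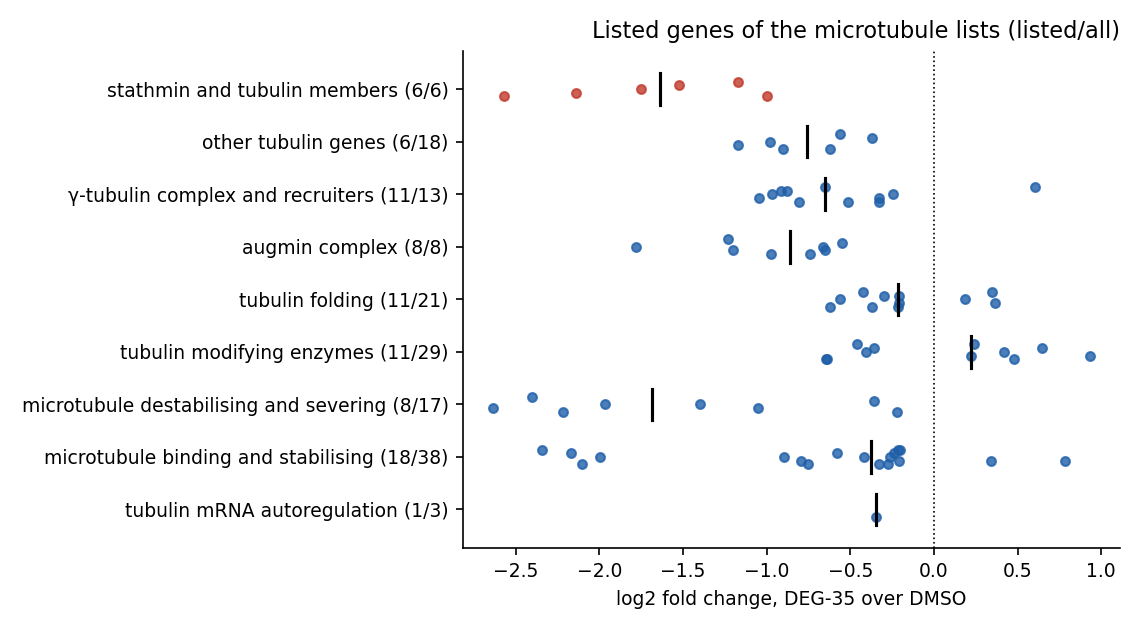
Log2 fold change, DEG-35 over DMSO (horizontal axis), of the listed genes of each list, with the number listed of all list genes in brackets. Black bars are medians, which run from -1.68 for destabilising and severing genes to 0.22 for modifying enzymes, and the members in red lie between -2.57 and -0.998.

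The promoter windows of the members differed in the letters they hold. RefSeq gave 11 windows for the 6 members, with 1 to 3 starts each, and the TUBA1C windows 1 and 2 overlap. A gene with more starts has more chances of a match, so shares are also given by window, of which all genes together had 35116. CCAAT in either orientation occurred in 5 of 6 members, against 39.7% of all 27305 genes with a window. These outnumber the 20056 protein-coding symbols of RefSeq and so include other gene types, whereas the members are protein-coding. By window CCAAT occurred in 7 of 11, against 34.6% of all windows. All 3 TUBA1C windows are among these 7, and windows 1 and 2 hold the same match. The CHR letters TTTGAA occurred in TUBA1C and TUBB4B, against 18.2% of all genes. By window they occurred in 4 of 11, against 15.2% of all windows, and 3 of these 4 belong to TUBA1C. E2F letters (TTTGGCGC, TTTCCCGC, TTTGCCGC or TTTCGCGC on either strand) occurred in STMN1 and TUBG1, against 3.99% of all genes. By window they occurred in 3 of 11, against 3.31% of all windows. In the windows shown above, the E2F letters begin 38 bases before the STMN1 start and 31 bases before the TUBG1 start, with a CCAAT box 75 and 67 bases before these starts. TUBB4B has 3 CCAAT boxes, at -232, -166 and -103 from its start, and its CHR letters lie further upstream at -242. In the TUBA1C window shown, 2 CHR matches at -178 and -170 lie upstream of 1 CCAAT box at -160. The TUBA1B window holds none of these letters, which says only that they are not in that window. The matches do not order the members by their change, since STMN1 and TUBG1, with E2F letters, stood at -2.57 and -1.17 in the authors' deposited table.

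**Figure D5:**
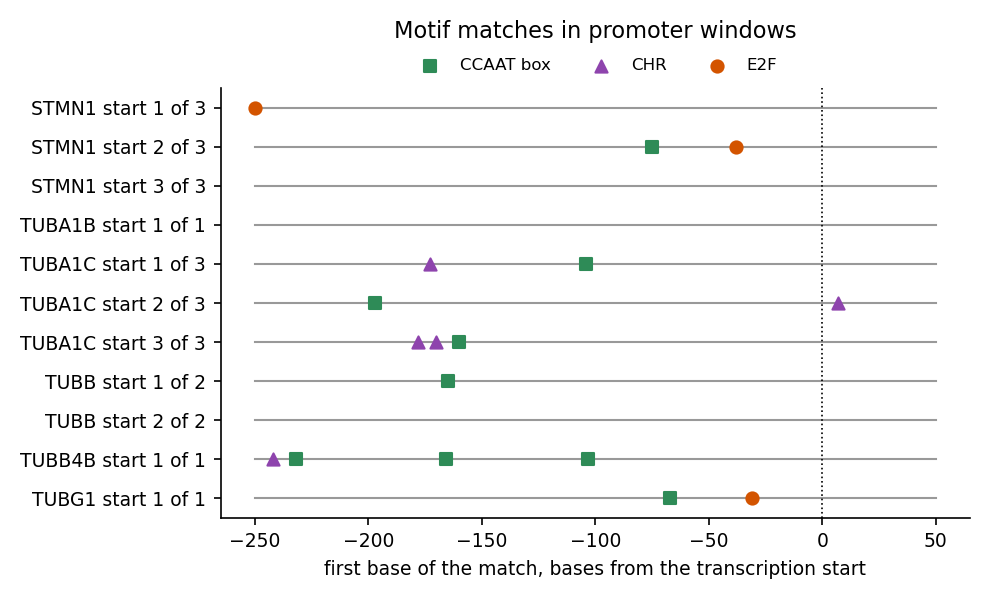
Position of CCAAT, CHR and E2F letter matches (first base, in bases from the annotated start, horizontal axis) in the 11 promoter windows of the members. E2F letters appear in STMN1 and TUBG1 windows, CHR letters in TUBA1C and TUBB4B windows, and no match in the TUBA1B window.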

How the data were processed

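Per the labels' protocols, mRNA libraries were made with a SMARTer kit from 3 DEG-35 and 3 DMSO samples of MOLM-13. The submitters' processing notes name STAR, featureCounts, DESeq2 and the build hg19, without versions or options. The authors deposited 1 table that, per the file headers, gives each gene's log2 fold change with its raw and adjusted p-value, and no counts. The adjusted p-values and ranks implied 15064 tests, within 0.000558% for the 2789 genes with a p above 1e-04. The implied SE is the size of the log2 fold change over the standard normal deviate that gives its p-value, which assumes a two-sided Wald test. The calculation was tested on simulated data.

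The members and the 8 gene lists (147 genes, all found as RefSeq symbols, 1 read through a synonym) were chosen with earlier results of these data known, and no test was made over members or lists. Named beside the members are, for each list, up to 3 higher and 3 lower genes with the smallest adjusted p. The overlapping genes, the neighbours of TUBB, and TUBB3, TUBD1, TUBB6, TUBGCP3, TUBGCP4, TUBGCP5, KIF2A, KATNA1, MAP4 and MAPRE1 were chosen after their values were seen. Gene order and promoters came from RefSeq on GRCh38.p14, and transcripts and overlaps from GENCODE release 29, whose build differs from hg19. Shared windows were exact 50-base matches on the transcript strand. Alternatives were a stricter adjusted p, a minimum change, Bonferroni adjustment, shifted fold changes, exact symbols and a limit on the implied SE. Calculations used SciPy 1.17.1, NumPy 2.4.6 and pandas 2.3.3 under Python 3.11.15, and plots Matplotlib 3.10.9.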

Additional observations from a re-analysis of the deposited data

How the results depend on the processing

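The limit on the implied SE was added after the values had been seen. All 6 members kept their direction under each setting tried, by construction. The limits only drop genes, and the shift of 0.3 either way is smaller than the smallest member change, -0.998 for TUBA1C. After the upward shift of all log2 fold changes the members stood at -2.27 to -0.70. An adjusted p below 0.01, Bonferroni adjustment over the implied tests and an implied SE of at most 0.2 each left 5 members, without TUBB, and a change of at least 1 on the log2 scale left 5, without TUBA1C. The count of 6831 listed genes became 1251 with a change of at least 1 and 3154 with Bonferroni adjustment. With a change of at least 1 the listed genes fell to 5 of the 11 tubulin genes, members included, 1 of the 6 other tubulin genes, 1 of the 11 γ-tubulin complex genes, 3 of the 8 augmin genes, 0 of the 11 folding genes, 0 of the 11 modifying enzymes, 4 of the 18 binding and stabilising genes and 0 of the 1 autoregulation gene, by construction, as the setting is stricter. No paired analysis was possible because the deposited table holds 1 comparison and no values per sample. For the same reason leaving out each replicate, the replicate block and a second count test were not run, and depth limits cannot be given.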

Other observations

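Over the numbered chromosomes and X, the 53 unlisted protein-coding genes before TUBB formed the third longest run of this kind in RefSeq's gene order, and the longest held 67 genes. The share of such genes that had been tested by the authors is unknown.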
